A study of Mus musculus with 2 samples.

Results

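The replication-dependent histone genes were examined in lists of methylated regions from mouse liver. A region was taken as a histone region where the lists paired it with a transcript whose symbol starts with Hist1h, Hist2h, Hist3h or Hist4h. By this rule 17 of 97063 regions in Pemt-/- and 29 of 131279 regions in Pemt+/+ were histone regions, and they were paired with 38 of the 14480 genes that had a region in either mouse. Liver DNA came from 1 Pemt-/- mouse, which lacks phosphatidylethanolamine N-methyltransferase (Pemt) in the whole body, and from 1 Pemt+/+ mouse. Both were fed high fat-high sucrose (HFHS) chow, from 5 to 25 weeks of age according to the sample records, and only males are described in the Methods. The Methods instead give shorter feeding times and several mice per genotype for the enrichment step, and the records mention bisulphite conversion where the Methods do not. DNA carrying methylated CpG was captured with a kit and sequenced, and a region is a place where the captured reads (tags) piled up. With 1 library per genotype there was no replicate check and no test of the genotypes, and every value compares these 2 libraries. Neither the genotype label nor the liver origin of the DNA was checked against the lists.

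Replication-dependent histone genes supply the core histones H2A, H2B, H3 and H4 and the linker histone H1 that package new DNA in S phase. They are short, mostly have no introns, and end their mRNA in a stem-loop in place of a poly(A) tail. In the mouse they lie in a large cluster named Hist1 and in the smaller Hist2, Hist3 and Hist4 groups. Hist1 also holds testis members, among them Hist1h1t, a linker histone of spermatocytes, and the divergent pair Hist1h2aa and Hist1h2ba, which encode the testis forms TH2A and TH2B.

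The lists placed regions over the transcripts of 4 of the 38 genes, namely the 3 testis members Hist1h2ba, Hist1h2aa and Hist1h1t, and Hist1h2be, which encodes an H2B. The other 34 genes had regions in their flanks only, at most 10 kb from the transcript. The promoters of 2 testis members are shown because the regions over the transcripts lay at or beside these start sites. They are the 250 bases before the start in RefSeq, build GRCm38.p6, written 5′ to 3′ along the gene, with CpG, the dinucleotide that is methylated, in capitals. The Hist1h2ba sequence is chr13:23934157-23934406 on the minus strand and the Hist1h1t sequence is chr13:23695561-23695810 on the plus strand.
Hist1h2ba: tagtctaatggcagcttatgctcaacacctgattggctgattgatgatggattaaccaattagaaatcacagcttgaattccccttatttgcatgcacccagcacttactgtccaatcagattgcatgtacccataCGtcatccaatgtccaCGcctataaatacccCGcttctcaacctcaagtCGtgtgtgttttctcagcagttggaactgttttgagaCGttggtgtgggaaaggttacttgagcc
Hist1h1t: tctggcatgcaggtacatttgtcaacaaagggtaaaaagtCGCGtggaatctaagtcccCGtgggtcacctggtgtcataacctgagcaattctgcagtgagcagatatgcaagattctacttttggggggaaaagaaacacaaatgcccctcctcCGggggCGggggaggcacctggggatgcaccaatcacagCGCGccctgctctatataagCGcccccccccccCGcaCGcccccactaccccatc
The Hist1h2ba sequence has 5 CpG and the Hist1h1t sequence has 10. Hist1h2aa starts 280 bases away from Hist1h2ba on the other strand, and the windows of the pair, which add the first 50 transcribed bases, share 220 bases. One stretch of DNA therefore stands before both genes, and it is printed once. The region lists were made on build mm9, so these sequences cannot be aligned with the regions base by base. From the distances in the lists, 304 bp separate the starts of the pair in the annotation used there.

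At Hist1h2ba and Hist1h2aa, the Pemt+/+ list held 1 long region and the Pemt-/- list held 3 shorter ones (mm9 positions). The Pemt+/+ region, chr13:24024884-24026206, held 66 tags (95% exact Poisson interval 51.0 to 84.0) over 1323 bp, the longest of the histone regions. It covered the whole Hist1h2ba transcript and ended 124 bp before the start of Hist1h2aa. In Pemt-/-, chr13:24025091-24025614 held 22 tags (13.8 to 33.3) and began 27 bp past the 3′ end of Hist1h2ba. The next, chr13:24025762-24026178, held 14 tags (7.65 to 23.5) and overlapped the 5′ end of that gene. The last, chr13:24026285-24026948, held 16 tags (9.15 to 26.0) and covered Hist1h2aa. Its nearest Pemt+/+ region ended 79 bp away, so Hist1h2aa had a region over its transcript in the Pemt-/- list alone. Together the 3 regions of Pemt-/- held 52 tags over 1605 bp, and the 2 that overlapped the Pemt+/+ region held 36. Sums of this kind move with how much was called. These Poisson intervals, and all intervals below, cover counting error only and no variation between mice, since there was 1 library per genotype. They would be too narrow if copies of a read made by PCR were counted as separate tags.

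**Figure D1:**
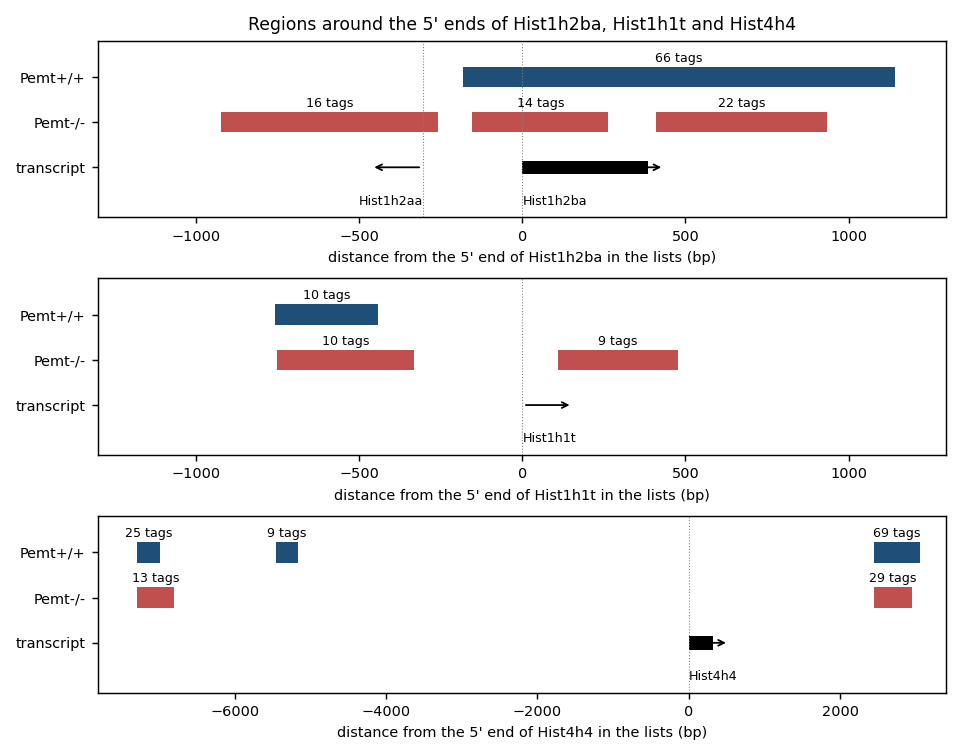
Regions of each mouse (bars, with their tags) along the distance in bp from the 5′ end of Hist1h2ba (top), Hist1h1t (middle) and Hist4h4 (bottom), with the direction of transcription to the right and transcripts in black (arrows alone where the lists do not give the length). The 66-tag Pemt+/+ region at Hist1h2ba overlaps the Pemt-/- regions of 22 and 14 tags, and the Pemt-/- region of 16 tags lies beyond its end. No region touches the Hist4h4 transcript.

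Another 2 regions lay far downstream of Hist1h2ba in Pemt+/+ alone, with 15 tags at 9537 bp and 14 tags at 9099 bp. They were also paired with Slc17a4, a neighbouring transporter gene.

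Hist1h1t had a region of 10 tags (4.80 to 18.4) upstream in each mouse, 333 bp from the transcript in Pemt-/- and 445 bp in Pemt+/+. A second region of Pemt-/-, chr13:23787787-23788156 with 9 tags (4.12 to 17.1), lay inside the transcript, from 108 to 477 bp past its start. The nearest Pemt+/+ region was 553 bp away. Its 9 tags are 1 more than the 8 of the smallest region in that list, and the smallest Pemt+/+ region had 9, so a place without a listed region may still have held tags. Both regions were also paired with the neighbouring genes Hist1h2bc, Hist1h4c and Hfe.

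Inside Hist1h2be, the Pemt-/- list held 1 region of 11 tags (5.49 to 19.7) and the Pemt+/+ list held 3, of 12, 12 and 11 tags. The 11-tag regions of the mice overlapped. RefSeq gives this gene a span of 37455 bp, far longer than a histone coding sequence, so a region inside it need not lie on the H2B coding part. The 3 testis members each span at most 735 bp, so a region listed over one of them lies at the gene itself.

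Thus a region over a transcript was found for 4 histone genes in Pemt-/- and for 2, Hist1h2ba and Hist1h2be, in Pemt+/+. Among all genes with a region, 73.6% in Pemt-/- and 76.2% in Pemt+/+ had one over the transcript. Most genes are much longer than a histone gene, and a short gene offers less length to a region. Among protein-coding genes of at most 1 kb, a background chosen after the data were seen, the share was 14.8% (49 of 330 genes) in Pemt-/- and 17.6% (69 of 393) in Pemt+/+. Of the histone genes of this length, 3 of 24 in Pemt-/- (12.5%, exact 95% interval 2.66 to 32.4) and 1 of 34 in Pemt+/+ (2.94%, 0.0744 to 15.3) had one. The Pemt-/- share lay near that of other short genes. The Pemt+/+ share lay below it, and its interval left out the 17.6%, though it overlapped the interval of the other short genes (13.9 to 21.7). The histone genes counted here include Hist3h2bb, a pseudogene in RefSeq, so the sets differ in this too. Neighbouring histone genes also share flank regions, so they are not independent counts, and no conclusion is drawn from the difference.

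Counted by region, 4 of 17 in Pemt-/- (23.5%, 6.81 to 49.9) and 4 of 29 in Pemt+/+ (13.8%, 3.89 to 31.7) touched a histone transcript. Over all regions, 39.4% and 39.6% touched a transcript of any gene. The histone shares count histone transcripts only, and histone regions were chosen for lying in or near such a transcript. The shares are therefore not like for like, and no conclusion is drawn from their difference. The histone regions that touched no histone transcript lay at a median of 3646 bp from the nearest one in Pemt-/- (range 27 to 7439, 13 regions). In Pemt+/+ the median was 3978 bp (287 to 9782, 25 regions). Within 1 kb there were 3 of these 13 and 5 of these 25.

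**Figure D2:**
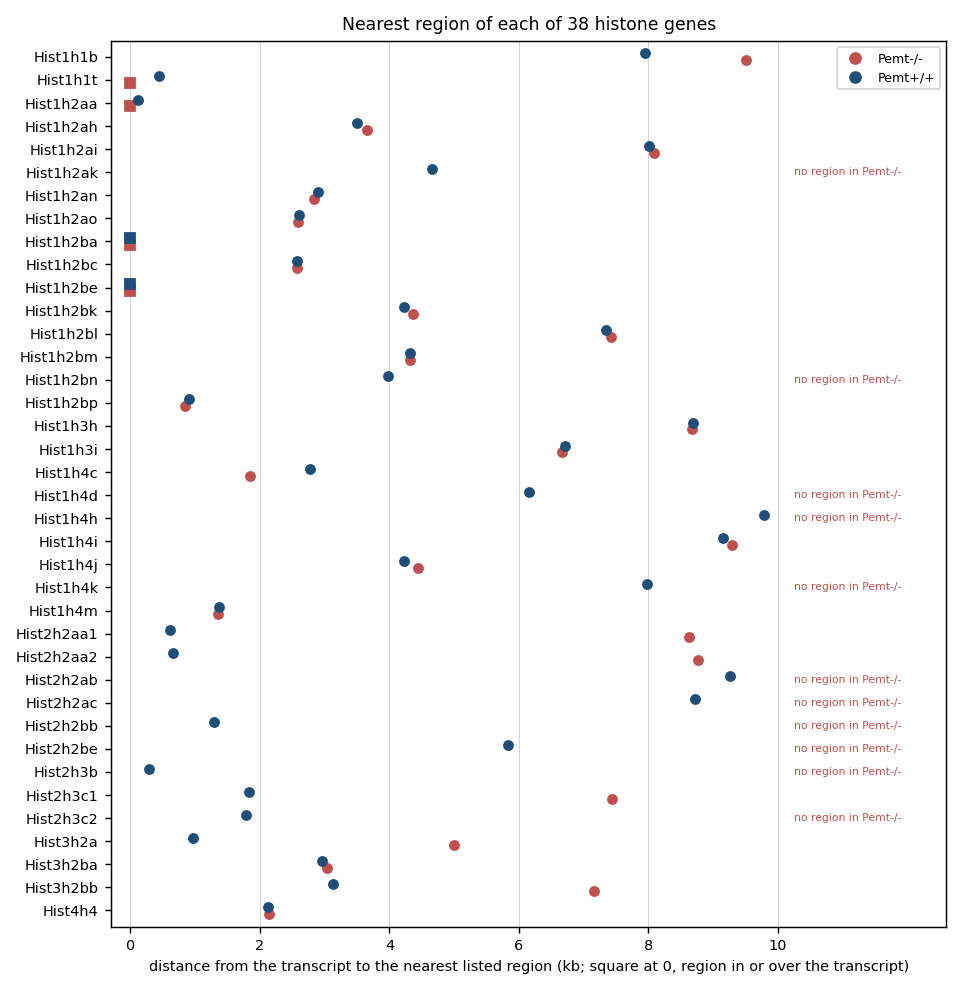
Distance in kb from the transcript of each of the 38 histone genes to its nearest listed region in each mouse, with squares at 0 for a region in or over the transcript. Squares appear at Hist1h1t and Hist1h2aa in Pemt-/- and at Hist1h2ba and Hist1h2be in both mice, and 11 genes have no region in Pemt-/-.

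Because histone genes are crowded, a region often stood beside several of them. The 17 regions of Pemt-/- made 40 pairings with histone transcripts and the 29 of Pemt+/+ made 70. A Pemt+/+ region of 11 tags in Hist2 was paired with 6 genes, and counts by gene therefore repeat regions. Of the 38 genes, 27 had a region in both mice, 11 in Pemt+/+ alone and 0 in Pemt-/- alone. Of all 14480 genes with a region in either mouse, 9.73% had one in Pemt+/+ alone and 2.31% in Pemt-/- alone. The 11 histone genes share regions, so they are not independent counts.

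By family, both H1 genes listed in either mouse had a region in each. In Pemt-/- this held for 8 of 11 H2A, 9 of 12 H2B, 3 of 5 H3 and 5 of 8 H4 genes, and Pemt+/+ had all of them. Each of the 5 families thus had genes with regions in both mice.

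By place, the Hist1 cluster on chromosome 13 held 12 regions with 143 tags in Pemt-/- and 19 with 332 tags in Pemt+/+. The Hist2 group on chromosome 3 held 1 region with 8 tags and 4 regions with 49. The Hist3 group on chromosome 11 held 2 with 20 tags and 3 with 49. Hist4h4, an H4 gene that stands alone on chromosome 6, held 2 with 42 tags and 3 with 103. Each place had fewer regions and fewer tags in Pemt-/-, as did the lists as a whole, with 1582080 tags against 2847831. No list gives the total reads of a library, so sequencing depth and methylation cannot be told apart in these sums. Histone regions held 0.0135% of the listed tags in Pemt-/- and 0.0187% in Pemt+/+.

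**Figure D3:**
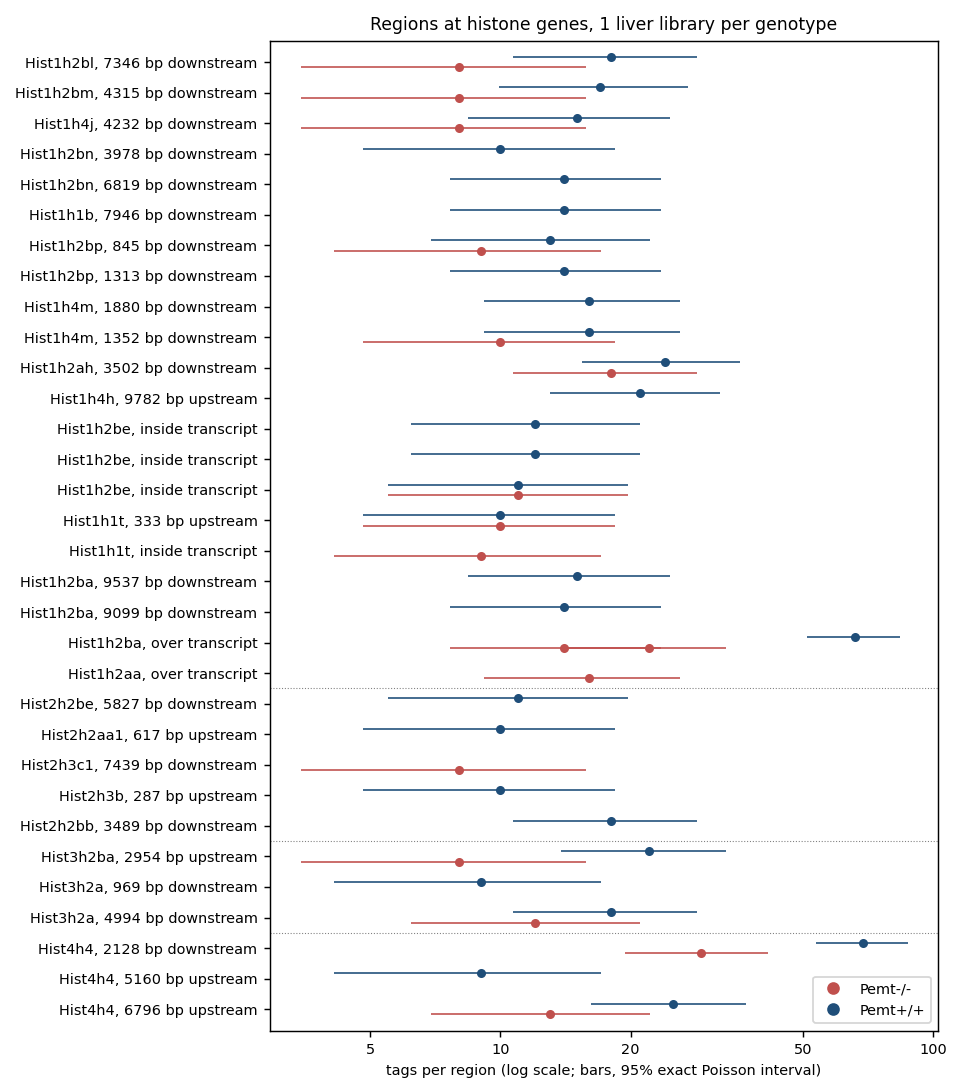
Tags per region (log axis) at the 32 places with a histone region, each named by its nearest histone gene, for Pemt-/- and Pemt+/+, with 95% exact Poisson intervals and dotted lines between Hist1, Hist2, Hist3 and Hist4. A total of 13 places have both mice, 3 have Pemt-/- alone and 16 have Pemt+/+ alone, and the highest values are the 69 tags downstream of Hist4h4 and the 66 tags over Hist1h2ba, both in Pemt+/+.

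In Hist2, no region was common to the mice. The Pemt-/- region, 8 tags, lay 7439 bp downstream of Hist2h3c1, an H3 gene, and was also paired with Hist2h2aa1 and Hist2h2aa2, which encode H2A. In Pemt+/+, a region of 11 tags lay 5827 bp downstream of Hist2h2be and was also paired with Hist2h2aa1, Hist2h2ab, Hist2h2ac, Hist2h3c1 and Hist2h3c2. A region of 10 tags lay 617 bp upstream of Hist2h2aa1 and 660 bp upstream of Hist2h2aa2. Near Hist2h3b and Hist2h2bb, an H3 and an H2B gene, a region of 10 tags lay 287 bp upstream of the former and one of 18 tags 3489 bp downstream of the latter. None of the 9 listed Hist2 genes had a region over its transcript in either mouse. Hist2h2aa1, Hist2h2aa2 and the Hist2h3c genes are near-identical copies, and how reads were shared among copies is not stated, so their values are uncertain.

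In Hist3, a region upstream of Hist3h2ba, an H2B gene, held 8 tags in Pemt-/- and 22 in Pemt+/+. A region downstream of Hist3h2a, an H2A gene, held 12 tags at 4994 bp in Pemt-/- and 18 at 5038 bp in Pemt+/+. A region of 9 tags at 969 bp downstream of the same gene was listed in Pemt+/+ alone. All of these were paired with Hist3h2bb as well, a pseudogene in RefSeq, and the downstream ones with Trim17.

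Downstream of Hist4h4 lay the histone region with the most tags in each mouse. That region, chr6:136749952-136750455 in Pemt-/-, held 29 tags (19.4 to 41.6) at 2133 bp, and its counterpart in Pemt+/+, chr6:136749854-136750460, held 69 (53.7 to 87.3) at 2128 bp. These counts were above those of 91.4% of all Pemt-/- regions and 98.5% of all Pemt+/+ regions. An upstream region held 13 tags at 6796 bp in Pemt-/- and 25 at 6991 bp in Pemt+/+. A Pemt+/+ region of 9 tags lay 5160 bp upstream. All were also paired with H2afj, the gene of the variant H2A.J, and the 9-tag region lay inside it.

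In the rest of Hist1, the region with the most tags in Pemt-/- lay 3646 bp downstream of Hist1h2ah and held 18 tags, against 24 at 3502 bp in Pemt+/+. It was also paired with Hist1h2bk and Hist1h4i, so it faced an H2A, an H2B and an H4 gene. The regions at Hist1h4m and Hist1h2ao are uncertain because the lists give these transcripts at more than 1 place.

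Of the Pemt-/- histone regions, 14 of 17 shared 1 bp or more with a region of Pemt+/+ (82.4%, exact 95% interval 56.6 to 96.2), beside 83.3% of all Pemt-/- regions. The 3 that did not, beside a background of 16.7%, were those in Hist1h1t, over Hist1h2aa and downstream of Hist2h3c1, with 9, 16 and 8 tags. Of the Pemt+/+ histone regions, 13 of 29 overlapped a Pemt-/- region (44.8%, 26.4 to 64.3), beside 61.6% of all Pemt+/+ regions. The other 16, beside a background of 38.4%, held 9 to 21 tags with a median of 13. The interval around 44.8% includes the share of all regions, as does that around 82.4%.

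Histone regions had a median of 10 tags in Pemt-/- (95% interval from the order of the values 8 to 14) and 14 in Pemt+/+ (12 to 18), and both intervals included the medians of all regions, 13 and 17. The median fold enrichment over background, as listed, was 16.42 in Pemt-/- (13.9 to 16.4), and that interval left out the 16.91 of all regions. The value 16.42 was shared by the histone regions of 8 tags, the fewest listed in Pemt-/-. In Pemt+/+ it was 19.27 (16.1 to 22.5), and that interval included the 16.53 of all regions.

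Where a single region of one mouse overlapped a single region of the other, tags were compared within the pair. There were 12 histone pairs among 79393. The Pemt-/- region had fewer tags in 10 of them and as many in 2, the region inside Hist1h2be (11 and 11) and that upstream of Hist1h1t (10 and 10). Over all pairs, Pemt-/- had fewer tags in 85.3% and as many in 4.28%, so the 10 of 12 was near the background. Pemt-/- tags divided by Pemt+/+ tags had a median of 0.579 (95% interval from the order of the values 0.444 to 0.750), beside 0.682 over all pairs and 0.667 over the 73649 pairs with as many tags, 20 to 98 in all. The median over all pairs lay within the interval of the histone pairs.

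Summed, the histone pairs held 144 and 258 tags, so 35.8% of their tags were from Pemt-/- (exact 95% interval 31.1 to 40.7), beside 39.9% over all pairs. Without the pairs at Hist4h4 the share was 38.3% (32.5 to 44.5). Only the downstream pair at Hist4h4, with 29.6% (20.8 to 39.7), had an interval that left out the share of all pairs. This was 1 of 12 intervals and was not adjusted for their number.

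Relative to the median of all pairs, 3 of the 12 ratios were lower by at least 1.5-fold, beside a background of 10.9% of all pairs. They were the regions upstream of Hist3h2ba (8 and 22 tags, ratio 0.364), downstream of Hist4h4 (29 and 69, ratio 0.420) and downstream of Hist1h2bl, an H2B gene (8 and 18, ratio 0.444). None of the 12 was higher by 1.5-fold, beside 10.4% of all pairs. At a 2-fold limit 0 of the 12 were lower. Over all pairs at most 2.95% were, since that share had a ratio below 0.364, so 0 of 12 was near the background. In 2 of the 3 the Pemt-/- region was at the 8 tags of the smallest listed region, so a still lower ratio could not have been listed.

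**Figure D4:**
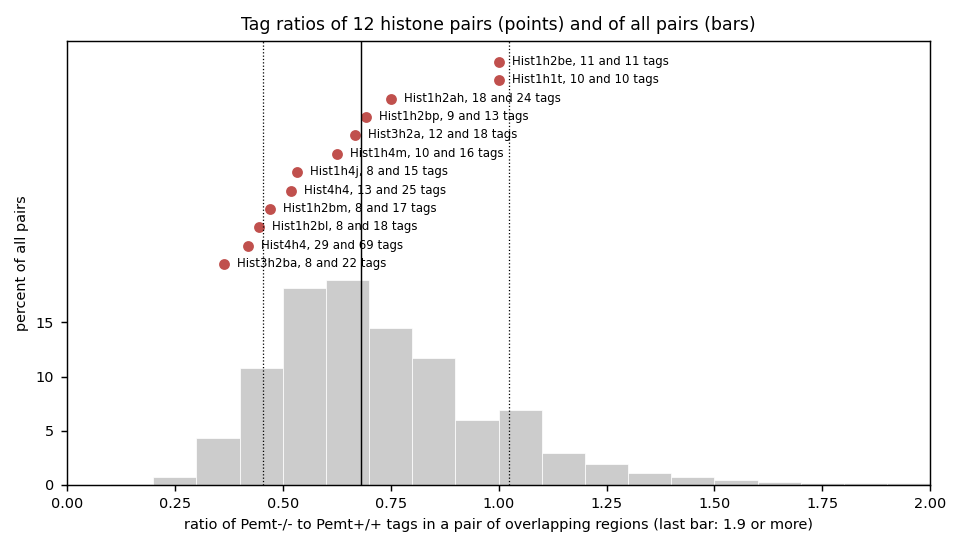
Ratio of Pemt-/- to Pemt+/+ tags in the 12 histone pairs (points, with the tags of Pemt-/- and Pemt+/+; height only separates them) above the distribution over all 79393 pairs (grey bars), with the median of all pairs (solid line) and limits 1.5-fold below and above it (dotted). The lowest point is Hist3h2ba at 0.364, and 3 points lie below the lower limit.

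Each mouse also had a shorter list with its own scores. None of the 17 Pemt-/- histone regions was in it, beside 2.13% of all Pemt-/- regions, and 1 of the 29 Pemt+/+ regions was, beside 4.59%. That region, chr13:21863534-21863805 with 14 tags, lay 7946 bp downstream of Hist1h1b, which encodes the linker histone H1.5. It had a fold enrichment of 11.54 and a false discovery rate of 32.29% in the shorter list, where 63.3% of regions had a higher score. It had no counterpart in Pemt-/-, whose nearest region was 18122 bp away.

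RefSeq names 70 genes of these clusters. Another 2 of them, Hist1h2bq and Hist1h2br, were listed under other symbols 3248 bp from a Pemt-/- region and 3265 bp from a Pemt+/+ region, and were not counted among the 38. The remaining 30 had no region listed under their gene ID in either mouse. For H2ac23 and H4c17 this is uncertain, since the lists place the transcripts of their near-identical copies, there named Hist1h2ao and Hist1h4m, at more than 1 position. A gene could also be missing because it was not in the transcript table behind the lists. Of these 30, 29 belong to Hist1 and 1 to Hist2.

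The H1 genes without a region were Hist1h1a, Hist1h1c, Hist1h1d and Hist1h1e, 4 of the 6 linker histone genes and all of them somatic. The H2A genes were Hist1h2ab, Hist1h2ac, Hist1h2ad, Hist1h2ae, Hist1h2af, Hist1h2ag, H2ac23 and the pseudogenes Hist1h2aj and Hist1h2al, 9 of 20. The H2B genes were Hist1h2bb, Hist1h2bf, Hist1h2bg, Hist1h2bh and Hist1h2bj, 5 of 19. The H3 genes were Hist1h3a, Hist1h3b, Hist1h3c, Hist1h3d, Hist1h3e, Hist1h3f and Hist1h3g, 7 of 12. The H4 genes were Hist1h4a, Hist1h4b, Hist1h4f, H4c17 and Hist2h4, 5 of 13.

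Many of these genes were neighbours. In the order of histone genes along the RefSeq assembly, 12 followed each other from Hist1h2af to Hist1h3d and 9 from Hist1h1c to Hist1h1a, with no histone gene with a region among them. The remaining 9 genes stood in runs of 2 or alone, Hist2h4 among the latter. Both long runs hold H1, H2A, H2B, H3 and H4 genes.

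Promoter windows of 300 bases, 250 before and 50 after the start, were at hand for 62 of the 70 genes (63 windows) and compared with all 32851 windows in RefSeq. The 63 windows had a median of 11 CpG (range 3 to 41), beside 7 over all, and a median ratio of observed to expected CpG of 0.746, beside 0.384. Among the testis members, Hist1h2ba had 7 CpG, Hist1h2aa 8 and Hist1h1t 10, and their ratios were 0.455, 0.549 and 0.450. The median ratio was 0.734 in 31 genes with flank regions only and 0.818 in 25 genes without a region. The testis windows were therefore below these medians, but within the range of the genes with flank regions, from 0.253 to 1.31. The most CpG, 41 and 36, were in the windows of Hist2h2aa1 and Hist2h2aa2.

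**Figure D5:**
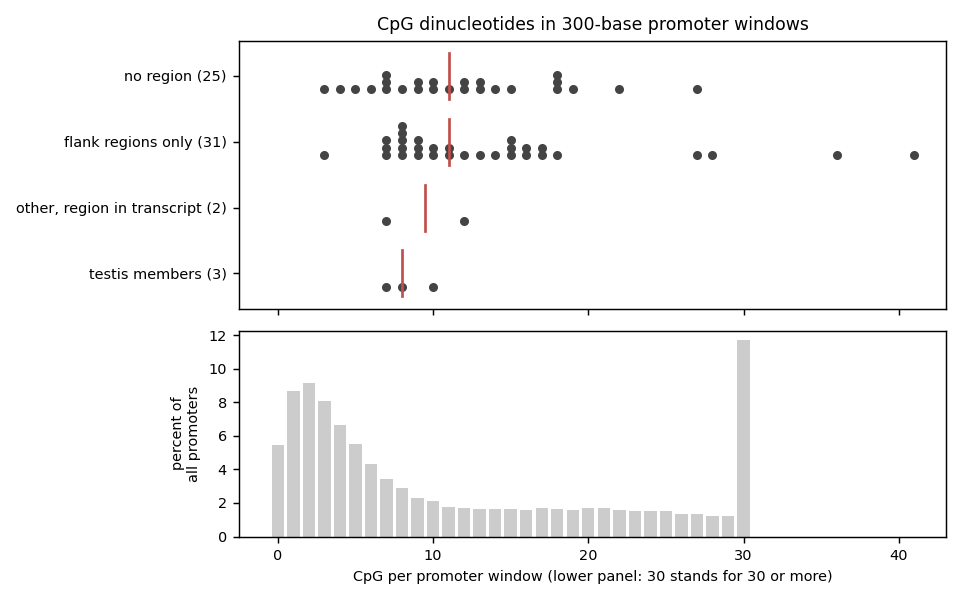
CpG per 300-base promoter window for the testis members, Hist1h2be with 2 windows, genes with flank regions only and genes without a region (points, number of windows in brackets, red line at the median), above the distribution over all RefSeq promoters (grey bars, those with 30 or more together). The testis members lie at 7, 8 and 10 CpG, beside medians of 11 in both large classes.

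Both strands of the windows were searched for TATAAA, a form of the TATA box. The CCAAT box and ATTTGCAT, the octamer to which Oct-1 (Pou2f1) binds, were searched likewise, and in no histone window did matches of different motifs share a base. TATAAA was in 35 of 63 windows (55.6%, beside 13.6% of all windows) and CCAAT in 54 (85.7%, beside 37.4%). The octamer was in 14 (22.2%, beside 1.74%), of which 7 of 18 were H2A and 7 of 17 were H2B windows, and it was in 0 of 28 windows of H1, H3 and H4 genes. CCAAT was in every H1, H2A, H2B and H3 window and in 3 of 12 H4 windows. Many histone windows are copies of each other, so these are not independent counts.

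In the Hist1h2ba sequence printed above, the octamer begins at -164 and TATAAA at -94, counted from the base before the start, and its window has 4 CCAAT. The window of Hist1h2aa has 4 CCAAT, 2 TATAAA and 1 octamer. That of Hist1h1t has 1 CCAAT and neither other motif. By class, the octamer was in 6 of 31 windows of genes with flank regions only and 5 of 25 of genes without a region, and CCAAT in 25 and 22.

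Other histone genes served for comparison. Of 16 replication-independent histone genes, which encode variants made outside S phase or in germ cells, 3 in Pemt-/- and 4 in Pemt+/+ had a region over the transcript, 5 and 4 in the flanks only, and 8 and 8 had none. H2afy2, the gene of macroH2A2, had the most. With its flanks it had 7 regions and 131 tags in Pemt-/- and 12 regions and 236 tags in Pemt+/+. Of 13 genes for factors that transcribe histone genes or process their mRNA, 6 in Pemt-/- and 8 in Pemt+/+ had a region over the transcript. The next counts include regions in the flanks. Npat, a coactivator of histone genes, and Slbp, which binds the stem-loop, had none in Pemt-/- and 2 each in Pemt+/+, with 25 and 36 tags. Of all genes with a region in either mouse, 9.73% had one in Pemt+/+ alone. Zfp473 had 1 region in Pemt-/- and 3 in Pemt+/+, and Eri1 had 4 and 7. Casp8ap2, another coactivator, had 6 in Pemt-/- and 4 in Pemt+/+. Hinfp, Pou2f1, Lsm11 and Cstf2 had as many in one mouse as in the other, although over the transcript Lsm11 had 1 in Pemt-/- and 2 in Pemt+/+. The comparison genes were not matched for length with the clustered histone genes, and no difference between them was tested.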

How the data were processed

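Methylated DNA from 1 Pemt-/- and 1 Pemt+/+ liver was captured and sequenced on a Genome Analyzer IIx. The processing notes of the submitters name CASAVA 1.8.2, Bowtie and the build mm9. Region names are those of MACS, and its version, settings, control and handling of duplicates are not given in the sources used here. The authors deposited raw tag counts per region, fold enrichment as a ratio over background, the p-value as a score (−log10 multiplied by 10), and an FDR in percent. The lowest score was 50.

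Each region was counted once by its position. Inside, overlap and covering relations were read as over a transcript, and others as flanks of up to 10 kb. Regions were shared from 1 bp of overlap. Intervals (95%) are exact Clopper-Pearson for shares, exact Poisson for tags and order statistics for medians. Python 3.11.15, pandas 2.3.3, numpy 2.4.6, scipy 1.17.1 and matplotlib 3.10.9 were used, and overlap and ratio steps were tested on simulated data. Gene names and promoters are from RefSeq (GRCm38.p6), matched by gene ID for 38 of 38 genes. The members, lists and naming rule were chosen with earlier results of these data known. Named were genes with a region over the transcript, the testis members, all of Hist2, Hist3 and Hist4, the 3 regions with most tags per mouse, those in a shorter list, pairs past 1.5-fold with at least 20 tags, and genes without a region. No test was run. The alternatives were the upper 50% by score, lists of equal size, 50% overlap, a 2 kb distance, a 2-fold limit and pairs with at least 20 tags. A further 3 were added after the data were seen: a background of pairs with as many tags, a background of short genes, and leaving out the regions at Hist1h2ba and Hist1h2aa.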

Additional observations from a re-analysis of the deposited data

How the results depend on the processing

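No paired analysis was possible because there was 1 library per genotype. Of 87 recalculated values, 54 stayed within 1.5 times or within their interval and 33 did not, and beyond the change in the regions kept the cause was not tested. With the upper 50% of each list by score, Pemt-/- kept 6 regions (Hist1 5, Hist2 0, Hist3 0, Hist4 1). There was 1 gene over the transcript, Hist1h2be, and 10 in flanks only, with a median of 14.5 tags and a median fold enrichment of 19.5. In Pemt-/- the regions over the testis members were thus lost. Pemt+/+ kept 17 regions (Hist1 11, Hist2 2), with 1 gene over the transcript, Hist1h2ba, and 23.5% shared (6.81 to 49.9). The share of all regions at this cut is not given, so the 23.5% has no background. The median ratio of 4 pairs was 0.432 (range 0.333 to 0.75), beside 0.667 over all pairs at this cut. With lists of equal size, Hist2 kept 2 regions in Pemt+/+. Of 11 pairs, 1 was higher and 2 were lower by 1.5-fold. In the full lists, 10.4% of all pairs were higher and 10.9% lower. Within 2 kb of a transcript, Pemt-/- kept 8 regions (Hist2 0, Hist3 0, Hist4 0; 50% over a transcript, 3 genes in flanks only) and Pemt+/+ 12 (Hist1 9, Hist2 2, Hist3 1, Hist4 0; 33.3% over a transcript, 11 genes in flanks only). The median ratio of the 4 pairs left was 0.846 (range 0.625 to 1.0), beside 0.682 over all pairs. Of these 4, 0 were lower by 1.5-fold, beside 10.9% of all pairs. At 2-fold, 0 pairs were lower, beside at most 2.95% of all pairs. Without the regions at Hist1h2ba and Hist1h2aa, 14 and 26 regions remained, of which 85.7% and 46.2% were shared. No region under 8 (Pemt-/-) or 9 (Pemt+/+) tags was listed, and library depth is unknown.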
